A study of Mus musculus with 10 samples.

Results

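Erythropoietin and 8 genes of the red cell lineage were followed in the livers of VEGF-treated mice: Epo, Epor, Gata1, Klf1, Slc4a1, Alas2, Tfrc, Hba-a1 and Hbb-b1. They were chosen by gene symbol, 9 of the 24011 rows that carried a symbol in the expression table. RNA-seq of whole liver had been performed on 10 male C57BL/6 mice, 8 to 12 weeks old. AdVEGF mice (n = 5) had received by tail vein an adenovirus that expresses VEGF-A from the CMV promoter, and AdCMV mice (n = 5) the empty virus with this promoter and no transgene. Livers were taken 6 days later, after perfusion with PBS. All 10 mice carried an adenovirus, the CMV promoter is not restricted to a cell type, and no untreated liver was included, so that the comparison is of the transgene against an empty vector.

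Erythropoietin is the hormone that keeps red cell precursors alive, and it acts through its receptor Epor and the kinase Jak2. In the precursors the transcription factors Gata1 and Klf1 switch on the genes of the mature red cell, among them the anion exchanger Slc4a1 (band 3), the heme enzyme Alas2, the transferrin receptor Tfrc and the globins. The liver is the main site of red cell formation in the fetus and a source of Epo before birth, whereas in the adult mouse red cells are made in bone marrow and spleen, and Epo comes mostly from the kidney.

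The regions upstream of the members were compared first, because Gata1 and Klf1 bind short motifs shared by red cell genes. RefSeq promoters on GRCm38.p6 were given for 7 of the 9 members, with Slc4a1 and Hbb-b1 missing. A GATA motif (the letters AGATAA, the same run opening with T, and both of these closing with G, on either strand) was found in the 250 bases before the start of 5 of these 7 members, and in 26.5% of 32851 promoters of the same length. CACCC on either strand, the core of the motif bound by Klf1, was found in all 7, and in 52% of all promoters. A match describes the letters only. The sequences of a receptor, a heme enzyme and a globin are shown because these 3 genes behaved differently in the livers, and capitals mark the GATA and CACCC motifs or their reverse complements.
Epor promoter, chr9:21963577-21963826, minus strand: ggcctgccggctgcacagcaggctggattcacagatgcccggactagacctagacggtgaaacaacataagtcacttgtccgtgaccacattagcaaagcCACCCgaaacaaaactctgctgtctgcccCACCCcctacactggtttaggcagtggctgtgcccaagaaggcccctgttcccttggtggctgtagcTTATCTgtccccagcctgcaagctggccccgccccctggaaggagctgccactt
Alas2 promoter, chrX:150547167-150547416, plus strand: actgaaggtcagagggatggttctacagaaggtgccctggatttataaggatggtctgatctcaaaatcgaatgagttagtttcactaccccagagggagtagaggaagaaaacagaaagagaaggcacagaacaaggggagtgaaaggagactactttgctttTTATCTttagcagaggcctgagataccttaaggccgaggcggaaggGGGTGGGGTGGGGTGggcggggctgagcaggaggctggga
Hba-a1 promoter, chr11:32283422-32283671, plus strand: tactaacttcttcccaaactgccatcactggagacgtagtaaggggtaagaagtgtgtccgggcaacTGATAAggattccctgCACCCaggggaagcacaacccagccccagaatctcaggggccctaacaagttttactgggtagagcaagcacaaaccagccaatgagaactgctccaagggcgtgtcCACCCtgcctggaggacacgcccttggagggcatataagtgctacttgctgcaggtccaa
The GATA motif nearest to the start began 54 bases before it in Epor, 86 bases in Alas2 and 183 bases in Hba-a1.

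Reads were measured as RPKM, reads scaled to the length of the transcript and to the mapped reads of the library. The libraries held 5758959 to 13494006 mapped tags in AdCMV and 5596565 to 8133958 in AdVEGF mice. The Mup genes, a liver family of urinary proteins, took 18.0 to 50.5% of the reads summed over genes in AdCMV and 7.84 to 28.6% in AdVEGF mice. These sums exceeded the mapped tags in every library, so some reads were counted for several genes. Over all genes tested the log2 fold change had a median of 0.38 on the deposited RPKM and -0.0044 after median-ratio scaling between libraries. Changes are therefore given on the deposited values and, where it matters, after this scaling. Genes were called at an adjusted p below 0.05 (limma, Benjamini-Hochberg over all genes tested) with a log2 fold change above 1 or below -1, and a gene was tested where the mean of either group exceeded 0.5 RPKM. Of 13933 genes tested, 13% were called higher and 1.54% lower in AdVEGF, or 7.77% and 3.14% after scaling. Mouse Vegfa itself was 18.1 ± 3.5 RPKM in AdCMV and 31.8 ± 4.7 in AdVEGF (SD, n = 5), and the share of transgene reads in it cannot be told apart. Hepatocyte, endothelial and Kupffer cell markers were present in all livers, and the summed endothelial markers were 11.7 to 27.2 RPKM in AdCMV and 172 to 186 in AdVEGF mice. AdVEGF replicate 4 stood apart from the other AdVEGF mice in red cell and neutrophil genes, and results that rest on it are given with and without it.

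Of the 9 members, 6 passed the filter on low values, 1 (Epor) was called higher, and 0 were called lower, beside 13% and 1.54% of all genes tested. The globins, Alas2, Tfrc and Klf1 did not pass the test, Gata1 and Slc4a1 were below the filter, and Epo had no read. Epor and Klf1 passed the filter only through AdVEGF. Every AdVEGF value was above every AdCMV value for Epor, Gata1 and Slc4a1, a pattern found in 14.3% of the genes tested, which do not include Gata1 and Slc4a1. With the filter removed, 3 of the 8 members with reads were called higher, beside 10.4% of 18554 genes.

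**Figure D1:**
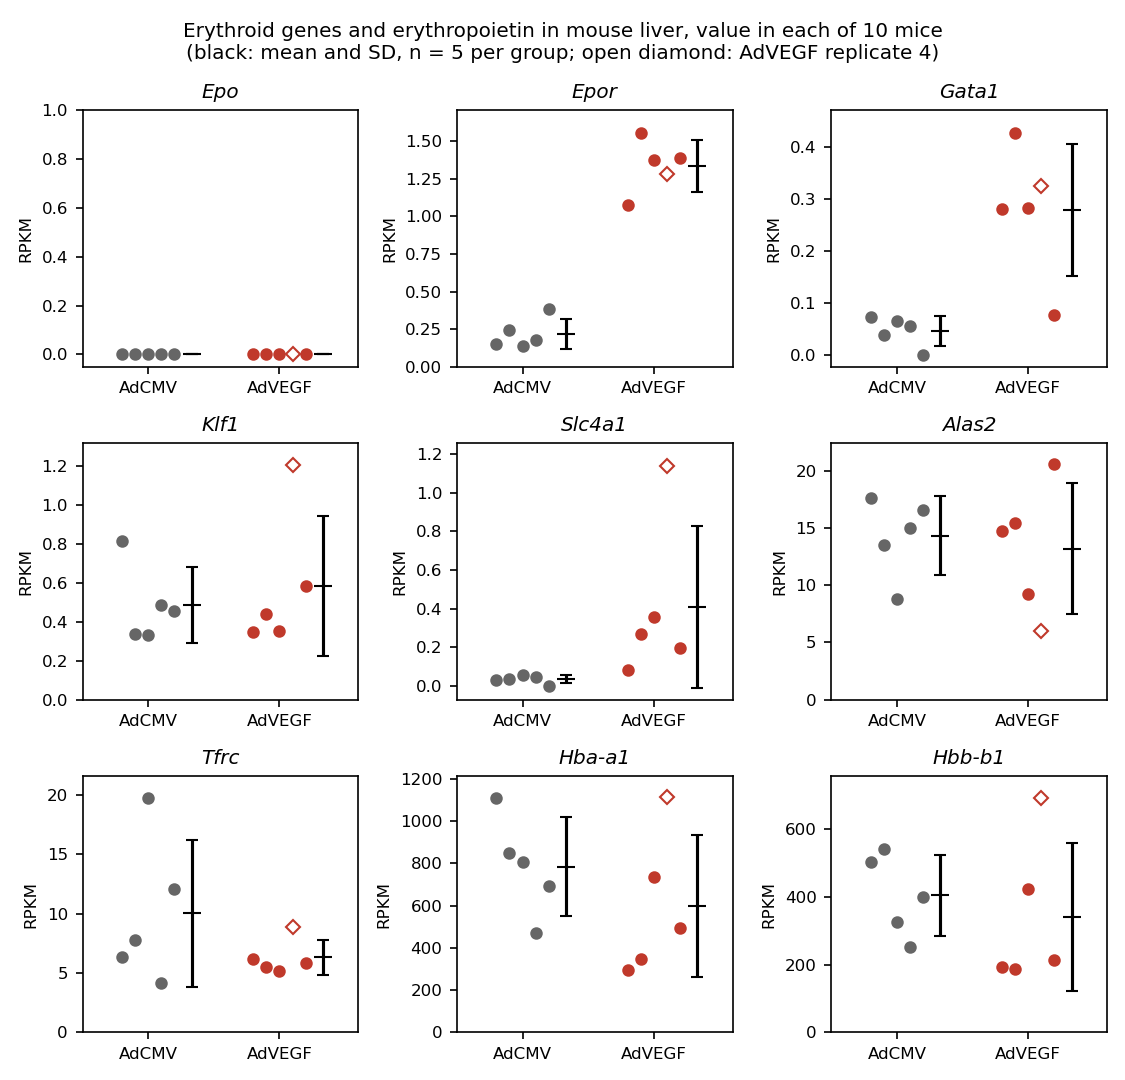
RPKM of the 9 members in each mouse (vertical axes, linear, each gene on its own scale), with AdCMV in gray and AdVEGF in red, black bars for mean ± SD (n = 5) and an open diamond for AdVEGF replicate 4. Epor lay between 1.077 and 1.554 RPKM in AdVEGF and at or below 0.382 in AdCMV mice, whereas the globins overlapped and Epo was 0 throughout.

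Epo, the ligand (mm9 chr5:137924248-137927044, minus strand), had 0 reads in all 10 livers. A count of 0 allows up to 3 reads, or 0.314 to 0.757 RPKM depending on the library, so that a lower level was not detectable at this depth. The gene was one of 5457 rows, 22.7% of the table, that were at 0 in every mouse. No gene could be ranked by its likeness to Epo, since its values did not vary.

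Epor, the receptor (chr9:21763343-21768020, minus strand), was higher in AdVEGF. Its level was 0.152, 0.244, 0.140, 0.175 and 0.382 RPKM in AdCMV replicates 1 to 5, from 2 to 6 reads a liver. In AdVEGF replicates 1 to 5 it was 1.077, 1.554, 1.375, 1.284 and 1.389 RPKM, from 11 to 21 reads. The groups did not overlap, and AdVEGF replicate 4 sat inside the range of its group. The log2 fold change was 2.21 ± 0.33 (SE; adjusted p = 0.000101, limma), a 4.64-fold difference on the scale of RPKM + 0.1, and 1.88 ± 0.28 after median-ratio scaling. Over all 24 alternatives the log2 fold change lay between 0.94 and 2.64. Epor lost the call only with a pseudocount of 1, where a level near 1 RPKM is compressed.

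In bulk tissue, more cells that carry a transcript and more of the transcript per cell cannot be told apart. The summed endothelial markers were higher in all 5 AdVEGF mice than in any AdCMV mouse. So was Cd34, itself among these markers and a surface protein of endothelial and blood progenitor cells, at 0.44 ± 0.22 and 29.4 ± 4.1 RPKM (SD, n = 5). Its log2 fold change was 5.84 (adjusted p = 2e-10, limma). In AdVEGF replicates 1 to 5 Cd34 was 32.454, 26.917, 24.978, 27.734 and 34.712 RPKM, in livers where Epor rested on 11 to 21 reads each. The summed hepatocyte markers also separated the groups on the deposited RPKM (16912 to 21488 RPKM in AdCMV, 29898 to 37254 in AdVEGF). Of the single markers, 2 of 6 hepatocyte and 6 of 6 endothelial genes were called higher, beside 13% of all genes. The part of these cells in the level of Epor was not tested.

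Of 11 genes tested that act with or downstream of Epor, 2 were called higher and 0 lower, or 18.2% beside 13% of all genes, and with Epor itself the list had a median log2 fold change of 0.34 beside 0.38 for all genes. The 2 were Socs2, an inhibitor of cytokine signalling (8.6 ± 2.4 and 29.7 ± 13 RPKM, SD, n = 5), and Sh2b3, an adaptor that restrains Jak2 (1.68 ± 0.76 and 4.18 ± 1.3 RPKM). After scaling Sh2b3 was no longer called (log2 fold change 0.95) and Pim1, a survival kinase, was called lower (-1.02). The kinase Jak2 and the transcription factors Stat5a and Stat5b, through which the receptor signals, had log2 fold changes of 0.08, -0.14 and 0.08. Cish, an early target of Stat5, was 2.214 to 12.17 RPKM in AdCMV and 3.721 to 15.912 RPKM in AdVEGF mice, with overlapping groups (adjusted p = 0.191, limma).

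Gata1, the transcription factor that commits progenitors to the red cell and platelet lineages (chrX:7536386-7545036, minus strand), was found at a few reads a liver. It was 0.073, 0.039, 0.067, 0.056 and 0 RPKM in AdCMV replicates 1 to 5, 4 reads in all, and 0.282, 0.427, 0.283, 0.325 and 0.078 RPKM in AdVEGF replicates 1 to 5, 18 reads in all. The groups did not overlap, but the lowest AdVEGF and the highest AdCMV value rested on 1 read each. The difference was 1.31 on the scale of log2(RPKM + 0.1), with p = 0.00794 in a two-sided exact permutation test (5 against 5), the smallest p that the design allows. After median-ratio scaling it was 1.08, with an exact permutation p of 0.0238.

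Klf1, which switches on the adult beta globin gene (chr8:87425827-87429194, plus strand), differed by less than its spread. It was 0.813, 0.339, 0.332, 0.486 and 0.454 RPKM in AdCMV replicates 1 to 5 and 0.349, 0.440, 0.351, 1.206 and 0.583 RPKM in AdVEGF replicates 1 to 5. AdVEGF replicate 4 was the highest of all 10 mice, and without it the gene fell below the filter, with a mean of 0.431 ± 0.11 RPKM in the other 4. The log2 fold change was 0.16 ± 0.39 (adjusted p = 0.783, limma), and it turned to -0.18 after median-ratio scaling.

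Other transcription factors of the red cell program included 4 that rose. Of 13 such factors in the table, 9 were tested and 4 called higher with 0 lower, on the deposited RPKM as after scaling, beside 13% and 7.77% of all genes. Of the 4, Tal1 and Gata2 had passed the filter only through AdVEGF. Tal1, the basic helix-loop-helix factor needed for all blood formation and for vessel remodelling, was 0.123 to 0.331 RPKM in AdCMV and 1.805 to 2.15 RPKM in AdVEGF mice (log2 fold change 2.71 ± 0.31, adjusted p = 5.4e-06, limma). Gata2, the factor of early progenitors and endothelium, was 0.043 to 0.196 and 0.715 to 1.286 RPKM (log2 fold change 2.21). Lmo2, which bridges Tal1 and Gata factors, rose by 1.71 and Lyl1 by 1.57 on the log2 scale. AdVEGF replicate 4 was not the highest AdVEGF mouse for any of these 4 genes, and all 4 remained called without it. The bridging factor Ldb1 missed the fold threshold (0.97, adjusted p = 0.00249), and Zfpm1, Runx1 and Nfe2 were not called.

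The 4 factors below the filter, Gata1 among them, had few reads. Gfi1b, a repressor of late red cell and platelet precursors, had 0 reads in AdCMV and 12 reads over 4 AdVEGF mice, 5.23-fold the level of 3 reads over the AdCMV group. Myb, a factor of early precursors, had 16 reads in AdCMV and 46 in AdVEGF mice, with all AdVEGF values above all AdCMV values (0.028 to 0.231 and 0.237 to 0.537 RPKM). Bcl11a, a repressor of embryonic globin, was 0.035 to 0.166 and 0.122 to 0.38 RPKM, so that its groups overlapped. With the filter removed, 8 of the 13 factors were called higher, beside 10.4% of all genes, and 6 of 13 beside 6.36% after scaling, when Myb and Bcl11a were not called. Both counts include the member Gata1.

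**Figure D2:**
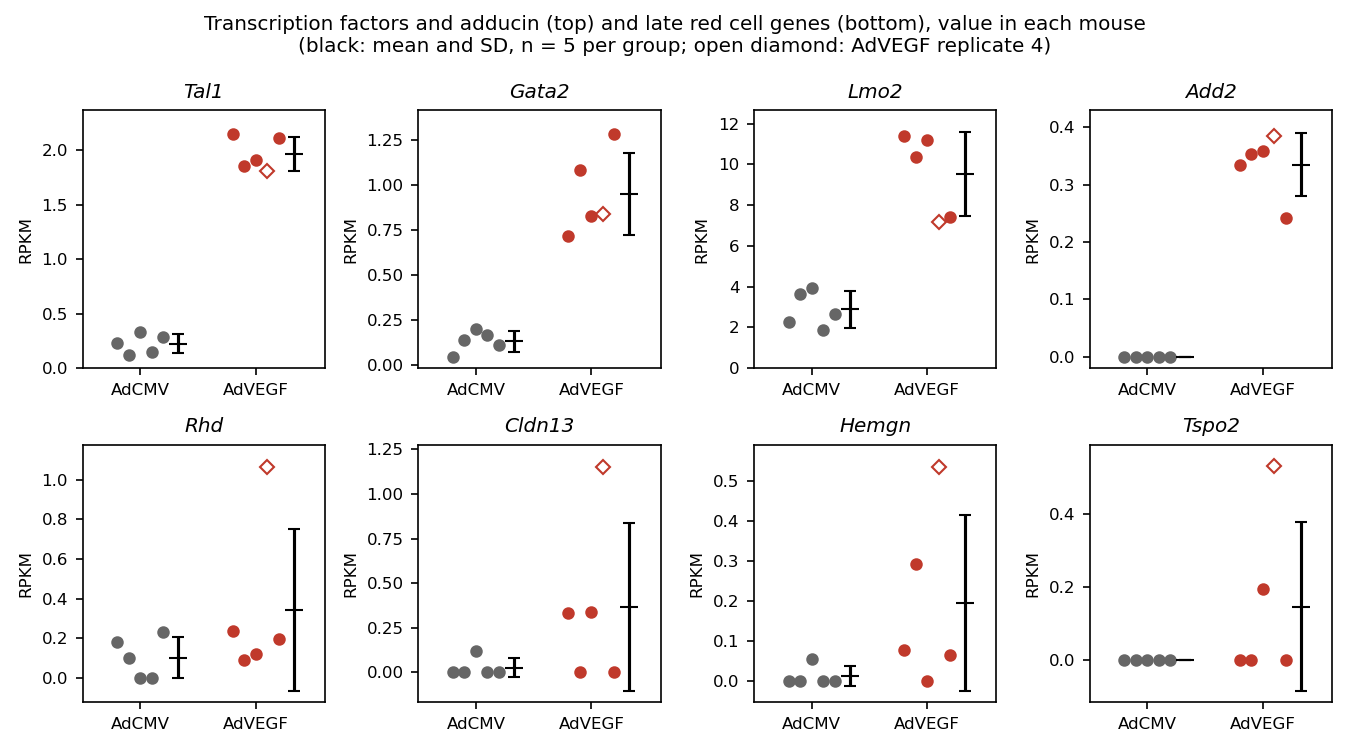
RPKM in each mouse (vertical axes, linear) of Tal1, Gata2, Lmo2 and the skeletal protein Add2 in the top row and of Rhd, Cldn13, Hemgn and Tspo2 in the bottom row, with AdCMV in gray, AdVEGF in red, mean ± SD (n = 5) in black and AdVEGF replicate 4 as an open diamond. In the top row the AdVEGF mice were higher than any AdCMV mouse, whereas in the bottom row replicate 4 was at 1.064, 1.153, 0.534 and 0.53 RPKM, above every other mouse.

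Slc4a1, the anion exchanger of the red cell membrane (chr11:102210134-102226595, minus strand), was higher in AdVEGF, mostly in 1 mouse. It was 0.030, 0.033, 0.056, 0.047 and 0 RPKM in AdCMV replicates 1 to 5, from 0 to 2 reads a liver. In AdVEGF replicates 1 to 5 it was 0.079, 0.268, 0.355, 1.140 and 0.197 RPKM, and replicate 4 held 42 of the 68 reads. The groups did not overlap, although AdVEGF replicate 1 rested on 2 reads, as did 3 of the AdCMV livers. The difference was 1.62 on the scale of log2(RPKM + 0.1) (two-sided exact permutation p = 0.00794), and 1.22 without AdVEGF replicate 4. After median-ratio scaling it was 1.42 (exact permutation p = 0.0159).

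Replicate 4 stood out in other red cell membrane genes as well. Rhd, a blood group membrane protein, was 0 to 0.231 RPKM in AdCMV mice and 1.064 RPKM in this mouse, 6.61 times the mean of the other 4. Cldn13, a claudin of mouse red cell precursors, was 1.153 RPKM in it and 0 to 0.335 in the others. The table held 19 genes of the red cell membrane and skeleton, Slc4a1, Rhd and Cldn13 among them. Replicate 4 was the highest AdVEGF mouse for 11 of the 19 and the highest of all mice for 9, beside 26% and 19.8% of the 18554 genes with a read. Its summed erythroid markers were 1817 RPKM, with 505 RPKM in the lowest AdVEGF mouse and 738 to 1635 RPKM in AdCMV mice, almost all of it globin.

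Of these 19 genes 9 passed the filter and 1 was called higher, near the 13% of all genes. With no filter 3 of 19 were called higher, the member Slc4a1 among them, beside 10.4%. The gene called was Aqp1, a water channel of red cells and of endothelium, at 15.4 ± 5.3 RPKM in AdCMV and 70.9 ± 12 in AdVEGF (SD, n = 5; log2 fold change 2.25, adjusted p = 2.57e-06, limma). Add2, the beta subunit of the membrane skeleton protein adducin, was below the filter. It had 0 reads in all AdCMV livers and 90 reads in AdVEGF mice, 0.242 to 0.385 RPKM each, 39.2-fold the level of 3 reads over the AdCMV group. Rhag, the partner of Rhd in the membrane, was 0.593 ± 0.26 and 1.22 ± 0.25 RPKM and missed the fold threshold (log2 fold change 0.98, adjusted p = 0.0331, limma). Sptb, a spectrin chain of the skeleton, had 29 reads in AdCMV and 22 reads in AdVEGF mice.

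Alas2, which makes the first intermediate of heme in red cell precursors (chrX:146981960-147005165, plus strand), was not called. It was 17.631, 13.532, 8.779, 15.050 and 16.605 RPKM in AdCMV replicates 1 to 5, and 14.760, 15.409, 9.270, 6.003 and 20.632 RPKM in AdVEGF replicates 1 to 5. The groups overlapped, with AdVEGF mice at both the lowest and the highest end. The log2 fold change was -0.20 ± 0.30 (adjusted p = 0.634, limma), and 0.052 without AdVEGF replicate 4. This mouse had the lowest Alas2 and the highest globin RPKM of all 10, although AdCMV replicates 1 and 2 had more globin as a share of reads without the Mup genes (0.154 and 0.130%, with 0.126% in this mouse).

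From mouse to mouse, Alas2 went with Mup genes and Elovl3, and not with the globins. After subtraction of each group's mean, the 5 genes with the highest Pearson r to Alas2 over the 10 mice were Mup21 (0.96), Gm12718 (0.94), Mup3 (0.94), Mup9 (0.91) and Elovl3 (0.90), the last a fatty acid elongase of the liver. The r was -0.61 to Hba-a1 and -0.65 to Hbb-b1, which went with each other at 0.93. In AdVEGF replicate 4 Elovl3 was 1.575 RPKM and Mup21 52.172, the lowest of all mice in both cases. Without this mouse r was 0.93 to Mup21, 0.80 to Elovl3 and -0.27 to Hba-a1 over 9 mice. These values describe the livers and carry no test, since all genes of a mouse share its library total, of which the Mup genes held a varying part, and the reads of the near-identical Mup genes are uncertain.

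**Figure D3:**
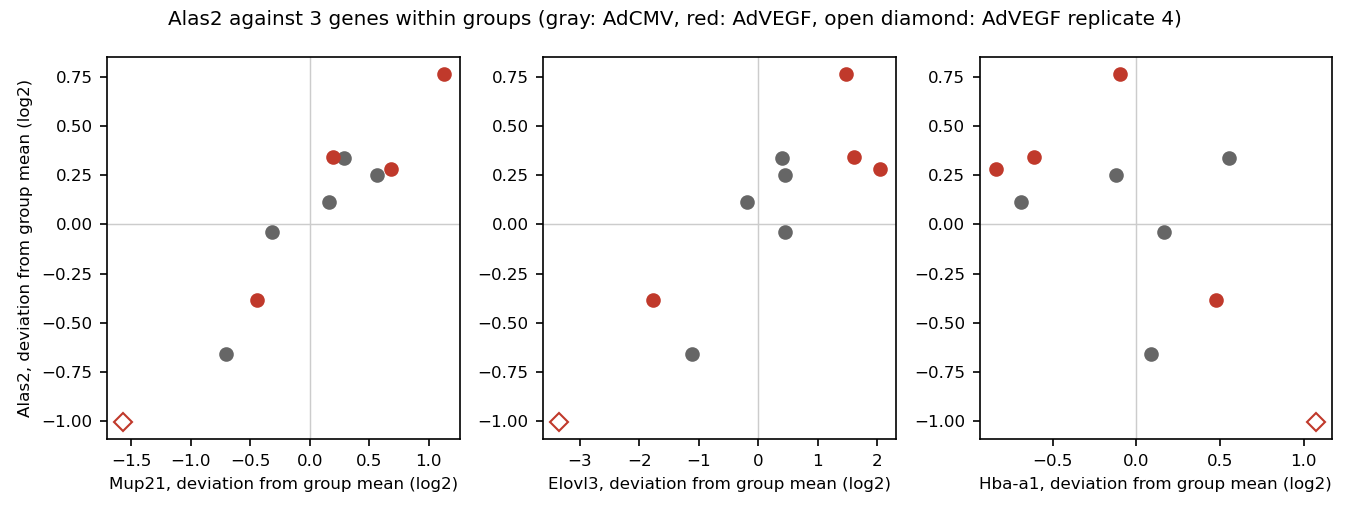
Deviation of Alas2 from its group mean (vertical axis, log2 of RPKM + 0.1) against that of Mup21, Elovl3 and Hba-a1 (horizontal axes) in 10 mice, with AdCMV in gray, AdVEGF in red and AdVEGF replicate 4 as an open diamond. The points rose with Mup21 (r = 0.96) and Elovl3 (r = 0.90), and with Hba-a1 they fell (r = -0.61), less so without replicate 4 (-0.27).

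No gene of heme synthesis was called. Of its 12 genes, all tested, 0 were called in either direction, beside 13% higher and 1.54% lower of all genes. All 12 had an AdCMV mean over 0.5 RPKM, and 9.92% of all such genes were called higher. The list had a median log2 fold change of -0.04 beside 0.38 for all genes, and of -0.43 beside -0.0044 after scaling. Alas1, the form of the enzyme used by hepatocytes and most other cells, was 22.13 to 122.614 RPKM in AdCMV and 15.969 to 79.274 in AdVEGF mice. Fech, which inserts iron into heme, was 29.9 ± 6.1 and 32.5 ± 3.9 RPKM (SD, n = 5). In Cpox, a mitochondrial enzyme of the pathway, every AdVEGF mouse lay below every AdCMV mouse (17.221 to 21.684 and 23.107 to 30.681 RPKM), a pattern of 1.29% of genes tested, but the change of -0.43 was not called (adjusted p = 0.0817, limma). After scaling it was -0.83 with an adjusted p of 0.00106, short of the fold threshold alone.

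Tfrc, which takes up iron-loaded transferrin (chr16:32608982-32632880, plus strand), was 6.350, 7.800, 19.764, 4.140 and 12.101 RPKM in AdCMV replicates 1 to 5. In AdVEGF replicates 1 to 5 it was 6.185, 5.476, 5.149, 8.895 and 5.861 RPKM. The groups overlapped, and the AdCMV mice spread much more than the AdVEGF mice. The log2 fold change was -0.48 ± 0.33 (adjusted p = 0.281, limma), and -0.61 without AdVEGF replicate 4. After median-ratio scaling it was -0.88 ± 0.24 with an adjusted p of 0.0185, still short of the fold threshold, and over its 24 alternatives the adjusted p ranged from 0.00909 to 1.

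Among 13 genes of iron uptake and storage, 1 was called higher and 0 lower, beside 13% and 1.54% of all genes. It was Trf, the transferrin that the liver secretes, at 2200 ± 720 RPKM in AdCMV and 4434 ± 1575 in AdVEGF mice, with a log2 fold change of 1.00 that was lost after scaling (0.60) and without AdVEGF replicate 4, where Trf was 7188 RPKM, and that held in 5 of the 10 fits with 1 mouse left out. Ferroportin (Slc40a1), the iron exporter, was 58.3 ± 20 and 78.7 ± 14 RPKM, and the ferritin chains Fth1 and Ftl1 had log2 fold changes of -0.17 and -0.24. In the list of red cell clearance and heme recycling, 0 of 10 genes were called. Hp and Hpx, the plasma proteins that bind free hemoglobin and heme, reached 7756 and 10729 RPKM in AdVEGF replicate 4, 3.54 and 2.51 times the mean of the other AdVEGF mice.

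The adult globins were the most abundant members, and neither was called on the deposited RPKM. Hba-a1, alpha globin (chr11:32183672-32184486, plus strand), was 1111.0, 847.4, 805.0, 469.4 and 693.9 RPKM in AdCMV replicates 1 to 5. In AdVEGF replicates 1 to 5 it was 295.3, 345.8, 736.3, 1113.1 and 493.7 RPKM. Replicate 4 was the highest of all mice, and 2 other AdVEGF mice were below every AdCMV mouse. The log2 fold change was -0.52 ± 0.33 (adjusted p = 0.259, limma), and -0.92 after median-ratio scaling (adjusted p = 0.0816). With library totals that left out the Mup genes it was -1.02 in all 10 mice (adjusted p = 0.0418), and the gene was called lower. These totals subtracted Mup reads that may have been counted for several Mup genes, and the median over all genes was then -0.11. Without AdVEGF replicate 4 the change in Hba-a1 was -0.78 on the deposited RPKM (adjusted p = 0.0651) and -1.17 after scaling (adjusted p = 0.0185), where the gene was again called lower.

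Hbb-b1, beta globin (chr7:110975046-110976443, minus strand), was 505.0, 541.4, 326.0, 252.9 and 400.8 RPKM in AdCMV replicates 1 to 5. It was 193.9, 187.5, 422.7, 693.1 and 214.6 RPKM in AdVEGF replicates 1 to 5, so that the groups overlapped, with replicate 4 again the highest of all and the 3 lowest AdVEGF mice below every AdCMV mouse. The log2 fold change was -0.40 ± 0.34 (adjusted p = 0.397, limma), and -0.70 without replicate 4 (adjusted p = 0.0852). After scaling and without this mouse it was -1.09 (adjusted p = 0.0244), which passed the threshold, and with totals without the Mup reads in all 10 mice it was -0.90 (adjusted p = 0.0765).

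The globin reads could not be assigned to single gene copies. The 6 adult alpha and beta globin rows lay at 3 positions of the deposited table, where Hba-a2 overlapped Hba-a1 by 812 bases and Hbb-bs overlapped Hbb-b1 by 1397 bases. On GRCm38 the promoters of Hba-a1 and Hba-a2 lie apart (chr11:32283422-32283671 and chr11:32296242-32296491). The table thus held no separate position for the other alpha gene, and where its reads were counted is not known. From 98.6 to 100% of the reads of 1 row of a pair were found in the other. Hba-a1 and Hba-a2 also differ at 1 of 429 coding bases, and Hbb-bs and Hbb-bt at 1 of 444. Bases 351 to 410 of the alpha and 385 to 444 of the beta coding sequences (GENCODE M21, GRCm38) show how little a read can use to separate them, with the differing base in capitals.
Hba-a1: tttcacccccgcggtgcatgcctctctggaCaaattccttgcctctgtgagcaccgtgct
Hba-a2: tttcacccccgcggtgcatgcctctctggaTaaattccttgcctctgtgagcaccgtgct
Hbb-bs: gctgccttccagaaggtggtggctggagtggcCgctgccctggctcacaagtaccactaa
Hbb-bt: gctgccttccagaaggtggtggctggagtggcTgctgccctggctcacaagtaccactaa
Reads of the 3 positions were therefore also summed, counting each position by 1 row.

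Globin made up 0.0891, 0.0782, 0.0678, 0.0390 and 0.0652% of the reads summed over genes in AdCMV replicates 1 to 5. In AdVEGF replicates 1 to 5 it made up 0.0299, 0.0323, 0.0713, 0.112 and 0.0419%, the widest spread of the 2 groups. The mean was 0.0679 ± 0.0187% in AdCMV and 0.0574 ± 0.0345% in AdVEGF (SD, n = 5), and the groups overlapped. Without the Mup reads in the total it was 0.108 ± 0.0326% in AdCMV and 0.0673 ± 0.0366% in AdVEGF, a difference larger than either SD, and the groups still overlapped (0.0788 to 0.154% and 0.0361 to 0.126%). Alpha globin was 1.33 to 1.94 times the summed beta globin RPKM in AdCMV mice and 1.25 to 1.79 times in AdVEGF mice, with AdVEGF replicate 4 inside that range. The ratio sets the Hba-a1 row against the sum of the Hbb-b1 and Hbb-b2 rows, so alpha globin was counted at fewer positions. The embryonic globins Hba-x, Hbb-y and Hbb-bh1 had 0 reads in all 10 livers, and the minor globin Hbq1b had 1 read in 1 AdVEGF mouse.

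**Figure D4:**
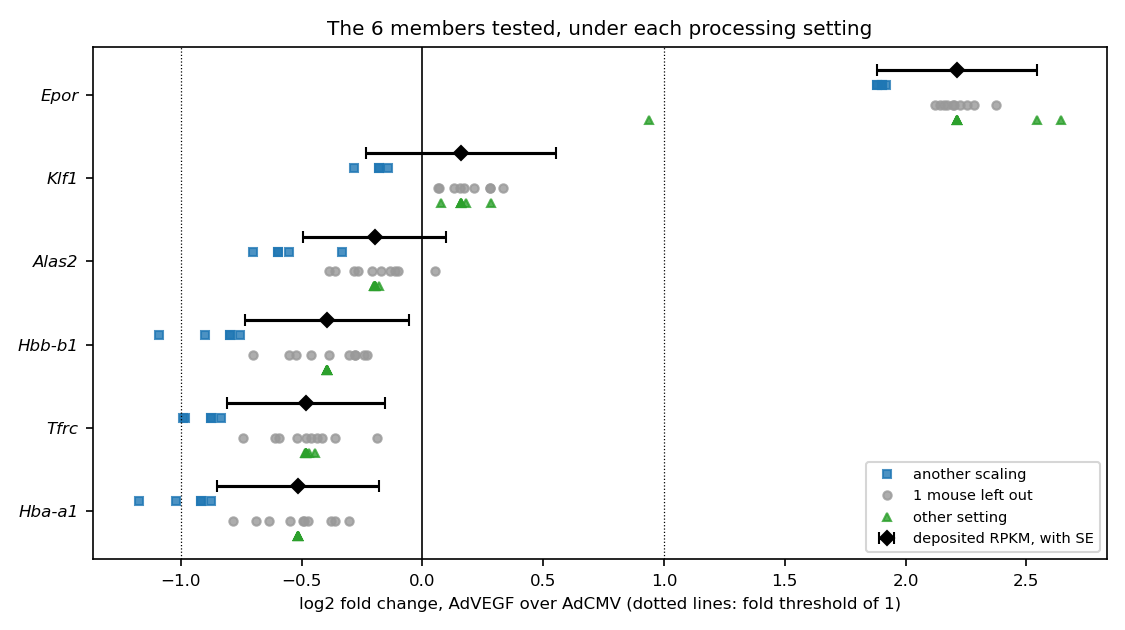
Log2 fold change, AdVEGF over AdCMV (horizontal axis), of the 6 members tested, on the deposited RPKM with its SE (black), with other scalings between libraries (blue), with 1 mouse left out (gray) and with other settings of filter, pseudocount or test (green), dotted lines marking the fold threshold. Epor was at 2.12 or above with any mouse left out, and all 6 genes were further to the left under each other scaling of all 10 mice, at 1.88 for Epor and -0.92 for Hba-a1 with median-ratio scaling.

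Genes of late red cell development, the members Epor and Tfrc among them, were near the detection limit or mostly not called. Of 13 such genes, 8 were tested and 2 called higher, beside 13% of all genes. These were Epor and Fam132b, the hormone erythroferrone that red cell precursors release in response to Epo, and both passed the filter only through AdVEGF. Of the 6 with an AdCMV mean over 0.5 RPKM, 0 were called higher, beside 9.92% of all such genes. Fam132b was 0.113 to 0.449 RPKM in AdCMV and 0.371 to 1.015 RPKM in AdVEGF mice (log2 fold change 1.16, adjusted p = 0.0441, limma), and it was not called after scaling (0.85), nor in 6 of the 10 fits with 1 mouse left out, AdVEGF replicate 4 among them. Hemgn, a nuclear protein of red cell precursors, had 1 read in AdCMV and 17 in AdVEGF mice, and was 0.534 RPKM in AdVEGF replicate 4. Tspo2, a red cell cholesterol-binding protein, had 0 reads in AdCMV mice and 5 reads in AdVEGF replicates 3 and 4. Prdx2, an abundant red cell peroxidase also made in liver, was 62.1 ± 5.7 and 81.8 ± 25 RPKM (SD, n = 5).

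Oxygen sensing, the pathway that governs Epo, showed 1 gene of 8 called higher, near the 13% of all genes. Epas1, which encodes the hypoxia factor that drives Epo and is abundant in endothelium, was 12.546 to 23.992 RPKM in AdCMV and 36.901 to 48.914 in AdVEGF mice (log2 fold change 1.32, adjusted p = 0.000187, limma). Its change was 0.92 after scaling, below the fold threshold. Hif1a, its relative, was 12.1 ± 5.3 and 13.3 ± 1.1 RPKM, and Vhl, which targets both for degradation, had a log2 fold change of 0.62 (adjusted p = 0.0657). Of 15 genes induced by hypoxia in many tissues, 1 was called higher, again beside 13% of all genes. It was the vasodilator peptide Adm (0.83 ± 0.3 and 2.78 ± 0.92 RPKM), and the list had a median log2 fold change of 0.15 beside 0.38 for all genes. The glucose transporter Slc2a1 and the pyruvate dehydrogenase kinase Pdk1 had log2 fold changes of -0.20 and 0.13.

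**Figure D5:**
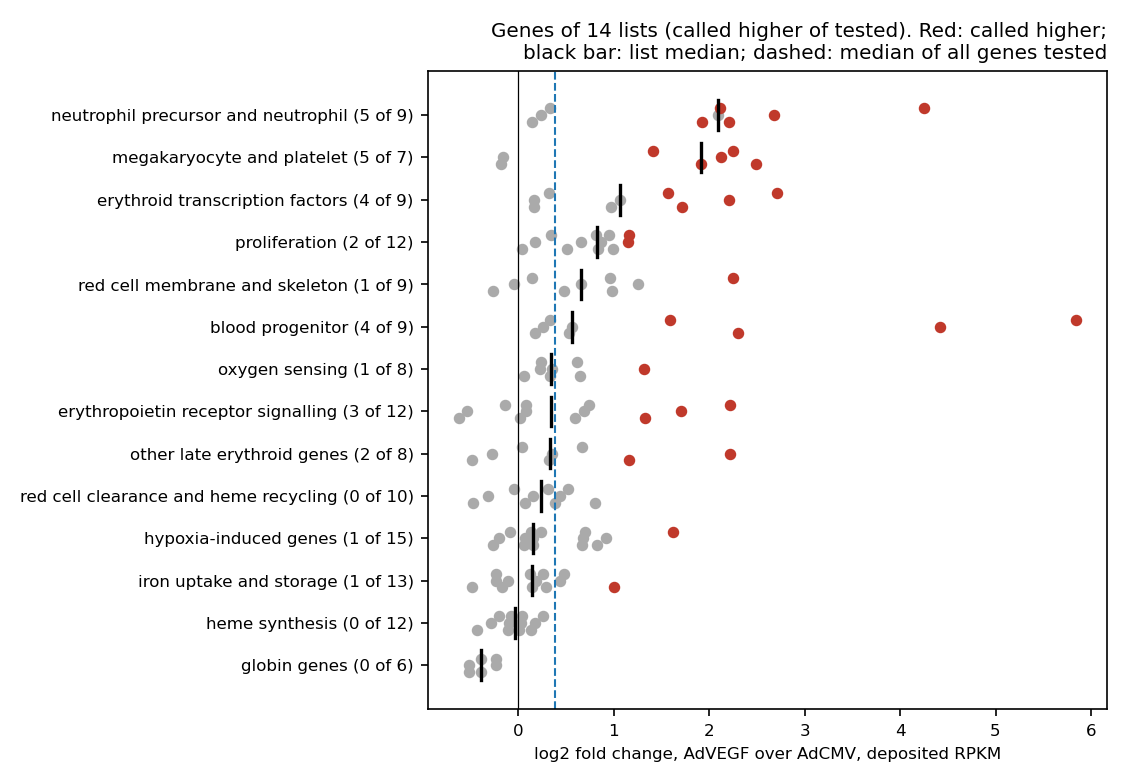
Log2 fold change, AdVEGF over AdCMV on the deposited RPKM (horizontal axis), of each gene tested in 14 lists, with genes called higher in red, list medians as black bars and the median of all genes (0.38) as a dashed line. Of 12 heme synthesis genes and 6 globin rows 0 were called, beside 13% higher and 1.54% lower of all genes tested. Their medians were -0.04 and -0.40, and the 6 globin rows lay at only 3 positions, so that each position counts repeatedly. In some other lists genes passed the filter only through AdVEGF (5 of 9 neutrophil and 3 of 9 transcription factor genes), which raises those medians.

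Genes of the other blood lineages were also measured, because they share progenitors with the red cell. Of 7 megakaryocyte and platelet genes tested, 5 were called higher, also after scaling and without AdVEGF replicate 4, beside 13% of all genes and 7.77% after scaling. All 5 had AdCMV means over 0.5 RPKM. Pf4, a platelet chemokine, was 2.395 to 4.576 RPKM in AdCMV and 6.116 to 23.556 RPKM in AdVEGF mice, and the integrin chain Itgb3, also found on endothelium, was 0.549 ± 0.26 and 3.31 ± 0.39 RPKM (SD, n = 5). Thpo, the platelet growth factor made by the liver, was 4.28 ± 0.6 and 3.93 ± 1.2 RPKM. Of 9 neutrophil genes tested, 5 were called higher, or 3 after scaling and 3 without AdVEGF replicate 4, but 4 of the 5 had passed the filter only through AdVEGF. With no filter 6 of 11 were called higher, beside 10.4% of all genes, and 4 of 11 beside 6.36% after scaling. Mpo, the peroxidase of neutrophil precursors, had 0 reads in AdCMV and 217 in AdVEGF mice, 94.6-fold the level of 3 reads over the AdCMV group. It had reads in all 5 AdVEGF mice (0.529 to 4.471 RPKM). S100a8, abundant in mature neutrophils, was 107.4 RPKM in AdVEGF replicate 4 and 6.527 to 26.092 in the other AdVEGF mice.

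Among 9 blood progenitor genes tested, 4 were called higher on the deposited RPKM and after scaling, beside 13% and 7.77% of all genes, and 2 of the 4 (Cd34 and Mecom) had passed the filter only through AdVEGF. Besides Cd34 these were Mecom (0.233 ± 0.075 and 6.86 ± 0.33 RPKM) and Meis1 (1.13 ± 0.41 and 3.48 ± 0.55 RPKM), transcription factors of stem cells that endothelium also uses, and Kitl, the stem cell factor (1.32 ± 0.72 and 6.38 ± 0.78 RPKM). Kit, its receptor, carried by early red cell precursors, was 1.1 ± 0.27 and 1.63 ± 0.39 RPKM and was not called (adjusted p = 0.152, limma). Of 12 proliferation genes 2 were called higher, beside 13% of all genes. After scaling 0 were called higher, beside 7.77%, and without AdVEGF replicate 4 there were 6, beside 12.7%. The part of these cell types in the levels of Epor and the Tal1 group was not tested.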

How the data were processed

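Ribosome-depleted liver RNA of 10 mice (5 AdVEGF, 5 AdCMV) was sequenced, and groups and replicate numbers were taken from the sample titles. The authors mapped reads with TopHat to mm9 and, per the labels, used HOMER; the deposited values are RPKM per RefSeq transcript, with columns of their own fold changes and FDR that were not used. Strand setting in the counting is not given in the sources used here. Of 24016 rows, 5 without a symbol were dropped. Steps in the low RPKM gave whole reads for 99.854 to 99.982% of values.

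RPKM were tested as log2(RPKM + 0.1) with limma 3.58.1 (lmFit, eBayes with trend; R 4.3.3), for genes whose mean exceeded 0.5 RPKM in either group, and p-values were adjusted over all of them (Benjamini-Hochberg). Members below the filter were tested by exact permutation (252 regroupings; 2 genes). The fit was tested on simulated data for AdVEGF against AdCMV. Replicates were separate mice, and the lowest variance between 2 mice of a group was 12.4 times the counting noise. Limits given for 0 reads (3 reads) cover counting error only, and folds against them leave out the counting error and spread of the AdVEGF reads. Alternatives were other scalings, filters, pseudocounts and tests, voom on the recovered reads, a replicate block and each mouse left out.

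The members and gene lists were chosen with earlier results of these data known. The values of 2 list genes are not reported here. All 9 members are named with each mouse's value, and of each list up to 4 called genes of largest change and 2 of highest RPKM first, then any other; the 5 genes most like Alas2 were ranked by r. Motif matches and sequences came from RefSeq (GRCm38.p6) and GENCODE M21, and mm9 coordinates from the deposited table.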

Additional observations from a re-analysis of the deposited data

Results flagged for a closer look

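AdVEGF replicate 4 lay far above the other 4 AdVEGF mice in 3 members, by a test of the gap to the nearest mouse over the group's range that chance passes in about 5% of groups. Its values were 1.206 RPKM for Klf1, 1.14 RPKM for Slc4a1 and 8.895 RPKM for Tfrc. The same mouse was set apart in the red cell membrane gene Rhd (1.064 RPKM), in the neutrophil genes S100a8 (107.375 RPKM) and S100a9 (79.34 RPKM), and in the secreted proteins Hp (7755.51 RPKM), Hpx (10728.9 RPKM) and Trf (7187.9 RPKM).

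AdCMV replicate 3 was the highest of its group for Rhag (1.047 RPKM), Kitl (2.59 RPKM) and Bcl11a (0.166 RPKM). It was also the only AdCMV mouse with a read for Cldn13 (0.119 RPKM), Hemgn (0.055 RPKM) and Elane (0.139 RPKM). Other mice set apart were AdCMV replicate 2 for S100a8 (51.894 RPKM), AdCMV replicate 5 for Trf (3472.7 RPKM) and AdVEGF replicate 5, the lowest of its group, for Elane (0.163 RPKM).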

How the results depend on the processing

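Epor was called higher in 23 of 24 alternatives and was below the fold threshold with a pseudocount of 1 (log2 fold change 0.94), where 0 members were called. With any mouse left out its log2 fold change was 2.12 to 2.38. Without the filter 3 members were called higher, also after median-ratio scaling. Klf1 turned negative under median-ratio scaling (-0.18, also without the filter), upper quartile scaling (-0.14) and totals that left out the Mup genes (-0.28). Alas2 turned positive without AdVEGF replicate 4 (0.052), and was -0.39 to 0.052 with any mouse left out. Hba-a1 was called lower with totals without the Mup genes (-1.02), where 1 member and 4 list genes were lower, beside 558 of 13933 genes tested. With median-ratio scaling without AdVEGF replicate 4 it was again called lower (-1.17), as was Hbb-b1 (-1.09). There 2 members and 4 list genes were lower, beside 401 of 13945 genes tested. These 4 were the overlapping rows Hba-a1 and Hba-a2 and the overlapping rows Hbb-b1 and Hbb-bs, with the 2 members among them. Each pair shares nearly all of its reads. Median-ratio scaling alone gave 1 list gene lower, with the filter or without. The cause of these shifts was not tested. Totals without the Mup genes may subtract reads that were counted repeatedly. With 1 mouse left out, log2 fold changes were 0.06 to 0.33 for Klf1, -0.74 to -0.19 for Tfrc, -0.78 to -0.31 for Hba-a1 and -0.70 to -0.23 for Hbb-b1.

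Genes called higher and lower, 1808 and 214 on the deposited RPKM, were 1082 and 438 with median-ratio scaling, 1125 and 393 with upper quartile scaling, 985 and 558 with totals without the Mup genes, 1079 and 401 with median-ratio scaling without AdVEGF replicate 4, and 1180 and 444 with median-ratio scaling and no filter. A pseudocount of 1 gave 954 higher, and limma treat, which tests against the fold threshold, 503 and 36, with 9 list genes higher in place of 28. With 1 mouse left out they were 1425 to 2357 and 178 to 225. The mean globin share of reads was 0.108% in AdCMV and 0.0673% in AdVEGF without the Mup genes. Whether replicate numbers pair the mice was not settled, with same-number correlations of 0.0076 to 0.29 and 3 of 5 mice closest to their own number. A replicate block gave 1933 genes higher, 256 lower and Epor at 2.21 with adjusted p = 6.4e-05 (limma). Gata1 and Slc4a1 had exact permutation p of 0.0238 and 0.0159 with median-ratio scaling, where their groups overlapped; without overlap, leaving out a mouse or changing the pseudocount cannot raise p above the smallest the design allows.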
